A study of Mus musculus with 6 samples.

Results

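Transcript levels of 9 genes of the oligodendrocyte lineage were compared between 2 fractions of neonatal mouse cerebellum: the lineage transcription factors Olig1, Olig2, Olig3, Sox10, Nkx2-2 and Nkx6-2, and the precursor receptors and surface proteins Pdgfra, Cspg4 and Gpr17. The genes were set by name, with no limit on their values, and taken from the array by the gene name of each probe that is not a control. They are 9 of the 24082 gene symbols on the array and are represented by 10 probes, since Nkx2-2 has 2 probes and each of the other genes has 1.

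The samples were cells of wild-type cerebella, labelled as strain CD1 and postnatal days 1 to 3, with 50000 cells and 1 Agilent array per sample. A+/G+ cells carry ACSA-2, an epitope of the sodium pump subunit Atp1b2, and GLAST, the glutamate transporter Slc1a3, and were represented by 3 biological replicates. A-/G+ cells carry GLAST but not ACSA-2 and were also represented by 3 biological replicates. Cerebella of either sex were pooled before dissociation, and no treatment was named for either fraction. A+/G+ cells were enriched with magnetic beads against ACSA-2 alone, whereas A-/G+ cells were first depleted of cells that bound ACSA-2, L1CAM, CD45, PSA-NCAM or Ter119 beads and then selected for GLAST, so the fractions differ in which other cells the procedure removed.

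Oligodendrocyte precursors are proliferating glia that spread through the developing brain and later make myelin. In such cells Olig2 is needed to enter the lineage, Sox10 is needed for terminal differentiation and myelin gene expression, and the receptor for platelet-derived growth factor encoded by Pdgfra receives the signal that keeps precursors dividing. None of these genes belongs to oligodendrocytes alone: Olig1 and Olig2 are also transcribed in neural progenitors and some astrocytes, Nkx2-2 and Olig3 in progenitor domains of the embryonic neural tube, Pdgfra in meningeal fibroblasts and Cspg4 in pericytes.

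The probes have 60 bases each, and their positions are those of the array's mm9 annotation. The Olig2 probe is at chr16:91228470-91228529 and the Olig1 probe at chr16:91271799-91271858, so the neighbouring genes were read 43.3 kb apart on the plus strand. The Nkx2-2 probes are at chr2:147008949-147009008 and chr2:147003307-147003366, both on the minus strand and 5.58 kb apart, and were listed under different transcript accessions. Sox10 was read at chr15:78985518-78985577 on the minus strand, Nkx6-2 at chr7:146767119-146767178 on the minus strand, Olig3 at chr10:19078253-19078312, Pdgfra at chr5:75593888-75593947 and Cspg4 at chr9:56746627-56746686, these on the plus strand. Whether a probe lies in coding sequence or in a UTR was not analysed here. The 30 bases shown for each probe identify what was hybridised, and capitals mark the polyadenylation signal AATAAA where the probe holds it. Bases 31 to 60 are shown for Sox10, bases 8 to 37 for Nkx6-2 and bases 1 to 30 for the others.
Olig1 probe: cgtagcgcaggcttataaaattcggtcatt
Olig2 probe: aagaacaacatcaaaaagttgctgtgaata
Sox10 probe: tccagcgataccttAATAAAgtacgtagct
Nkx2-2 probe, brighter: tttcaactatgaaaaaggaaaatatgtgta
Nkx2-2 probe, dimmer: cacaattgaagcatatatttccacctcttc
Nkx6-2 probe: ctttgtataatcAATAAAttatttaacacg
Pdgfra probe: tgtatatatctgttgctatgtagacttgga
Cspg4 probe: ctgacccagaactattgcagttttgccgga

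Before the results, the arrays themselves have to be set side by side, because those of A-/G+ were dimmer. The intensity at the 75th percentile of all gene probes was 332 to 334 on the A+/G+ arrays and 56.6, 113 and 251 on A-/G+ replicates 1, 2 and 3, and between 26469 and 26654 probes were well above background on the former against 18336, 21412 and 24730 on the latter. The A+/G+ arrays shared 1 slide and those of A-/G+ another, so slide and fraction cannot be told apart. Replicate 3 of A-/G+ stood apart from the other two in several of the genes below, and values without it are given where they matter. Levels are log2 intensities after quantile normalization of the arrays, given for replicates 1, 2 and 3 in that order, and a difference is the mean of A+/G+ minus the mean of A-/G+. A gene was called where the medians differed by 4-fold or more and limma's Benjamini-Hochberg adjusted p, taken over all probes, did not exceed 0.05. Levels of different probes are not comparable with each other.

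Olig1, Olig2 and Nkx6-2, 3 of the 9 genes, were called higher in A+/G+ by this rule, as 2.62% of all genes were, or 4.19% of those well above background on each A+/G+ array. In the opposite direction limma called 0 of the 9, where 0.44% of all genes were called. There 1 had an unadjusted p under 0.05 in limma, and the methods' t-test called 0. Counts at an unadjusted p, here and below, are a description, since their share over all genes was not counted. Counted over probes, 3 of 10 were called toward A+/G+ where 1.53% of all probes were, and 0 of 10 toward A-/G+ where 0.399% were. By the adjusted p of limma alone, without the limit on size, Pdgfra was also higher in A+/G+ and Nkx2-2 was higher in A-/G+, which makes 4 of 9 and 1 of 9 where 7.48% and 5.12% of all genes passed. In 5 genes, Olig1, Olig2, Nkx6-2, Pdgfra and Cspg4, every A+/G+ array lay above every A-/G+ array, an order that 19.1% of all genes had. In Nkx2-2 alone among the 9 every A-/G+ array lay above every A+/G+ array, as in 23.3% of all genes. Olig3, Sox10 and Gpr17 overlapped between the fractions. The median difference of the 9 genes was 1.16 on the log2 scale, and that of all genes was -0.03.

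**Figure D1:**
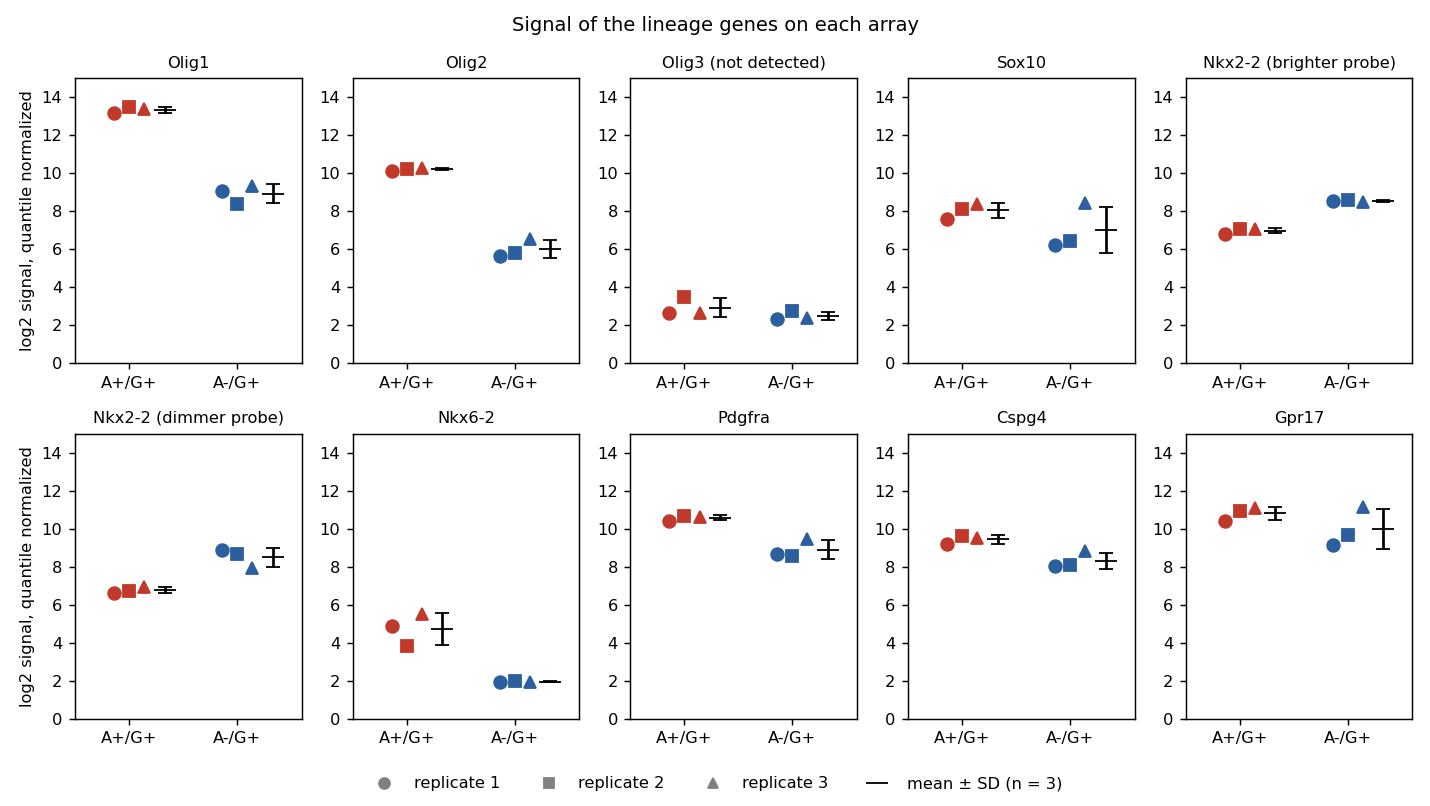
Log2 signal after quantile normalization for each of the 10 probes on each array, with A+/G+ in red, A-/G+ in blue, a different symbol for each replicate, and the mean with its SD (n = 3) in black. Olig1 and Olig2 are separated by over 3 log2 units between the fractions, Nkx2-2 lies higher in A-/G+ with both probes, and in Sox10 and Gpr17 replicate 3 of A-/G+ lies level with A+/G+.

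Olig1 and Olig2 encode related basic helix-loop-helix factors. Olig1 was at 13.18, 13.47 and 13.41 in A+/G+ and at 9.06, 8.37 and 9.34 in A-/G+. The ranges did not overlap, and the nearest arrays were 3.84 apart. The difference was 4.43 (SE 0.27, 95% interval 3.72 to 5.14), a 20.4-fold difference of the medians, with an adjusted p of 0.00417 in limma. Before normalization the Olig1 spot gave intensities of 14550, 18680 and 16760 in A+/G+ against 144, 192 and 829 in A-/G+, and it was well above background on all 6 arrays. Olig1 was therefore also measured in the A-/G+ fraction, at a level far under that of the other fraction. The paper describes the sorted fractions as enriched and not pure. In sections it saw no NG2, the protein of Cspg4, on cells with ACSA-2. By flow cytometry it found little PDGFRα, the protein of Pdgfra, in either population. It considered oligodendrocyte precursors among its grafted cells rather unlikely. Those results are for proteins on cells and not for RNA of the sorted samples, so which cells carried the Olig1 signal cannot be told.

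Olig2 was at 10.14, 10.25 and 10.27 in A+/G+ and at 5.65, 5.80 and 6.52 in A-/G+. Its A+/G+ arrays were tightly grouped (SD 0.07, n = 3), and its A-/G+ arrays were well above background in 2 of 3. The difference was 4.23 (SE 0.25, 95% interval 3.59 to 4.87), a 21.8-fold difference of the medians, with an adjusted p of 0.00389 in limma. By the mean difference, Olig1 ranked 50th and Olig2 73rd of the 24082 genes from the A+/G+ end. Within an array, the Olig1 signal relative to Olig2 moved by 0.20 between the fractions, with an exact permutation p of 0.5 (two-sided, 3 against 3 arrays), so the neighbouring genes differed by amounts that were not told apart. The smallest p that this exact permutation test can give is 0.1.

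Olig3, the third member of the family, marks dorsal progenitors of the hindbrain and spinal cord and is not a gene of the mature oligodendrocyte. It was not well above background on any of the 6 arrays, so no fold is given. Its values of 2.63, 3.48 and 2.66 in A+/G+ and 2.34, 2.75 and 2.37 in A-/G+ overlapped, with an adjusted p of 0.455 in limma.

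Sox10, which acts with Olig2 in precursors and switches on myelin genes later, did not follow the Olig genes. It was at 7.62, 8.12 and 8.38 in A+/G+ and at 6.22, 6.43 and 8.43 in A-/G+. Replicate 3 of A-/G+ thus lay above all A+/G+ arrays, whereas the other A-/G+ arrays lay below them. Sox10 was well above background on 2 of the 3 A-/G+ arrays, all but replicate 1. The difference was 1.02 (SE 0.67, 95% interval -0.70 to 2.73), with an adjusted p of 0.462 in limma. Without replicate 3 of A-/G+ it was 1.72, with an adjusted p of 0.029 in limma and medians 3.49-fold apart, still under the limit on size. That fit leaves 2 A-/G+ arrays.

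Relative to Sox10 on the same array, the Olig1 signal rose by 3.41 log2 units from A-/G+ to A+/G+ and the Olig2 signal by 3.21. Both relations held for every array of each fraction, so that the smallest A+/G+ ratio exceeded the largest A-/G+ ratio, with an exact permutation p of 0.1 each, the smallest possible. These ratios within an array do not depend on a shift of the whole array. On A-/G+ replicate 1, however, neither Olig2 nor Sox10 was well above background, so the ratios there rest on weak signals. With that limit, the ratios show an unequal change of the genes and not which of them stayed level.

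Nkx2-2, a homeodomain factor of ventral neural progenitors that also times the differentiation of oligodendrocyte precursors, ran the other way. Its brighter probe was at 6.82, 7.04 and 7.07 in A+/G+ and at 8.57, 8.61 and 8.49 in A-/G+. The 3 arrays of each fraction lay close together, replicate 3 of A-/G+ included. The difference was -1.58 (SE 0.09, 95% interval -1.81 to -1.35), with an adjusted p of 0.0038 in limma. The medians were 2.88-fold apart, which is under the 4-fold limit, so Nkx2-2 was not called.

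The dimmer Nkx2-2 probe was at 6.62, 6.73 and 6.96 in A+/G+ and at 8.89, 8.69 and 7.92 in A-/G+. It gave a difference of -1.73 (SE 0.29) with an adjusted p of 0.0305 in limma and medians 3.89-fold apart, so both probes had the same direction. The intensities of the brighter probe before normalization were 189, 217 and 224 in A+/G+ against 105, 226 and 459 in A-/G+ and overlapped, so its direction appears only once the arrays are put on 1 scale. The difference of this probe was negative under every scaling that was tried, with values between -1.59 and -1.19. These scalings included a shift of each array to its 75th percentile and the authors' own normalized table. The mean of both probes gave -1.66.

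Nkx6-2, a homeodomain factor of neural tube progenitors that is later made in myelinating oligodendrocytes, was a weak signal. It was at 4.89, 3.83 and 5.50 in A+/G+ and at 1.95, 1.98 and 1.93 in A-/G+. Each of the 3 A+/G+ arrays had the probe well above background, and 0 of the A-/G+ arrays did. The adjusted p was 0.0277 in limma, and the measured values passed the limit on size. No fold is given, because the lowest signal well above background on the A-/G+ arrays was 5.64, 4.95 and 4.03, on average above the A+/G+ mean of 4.74. The call was lost under 8 of the 15 alternative settings with the same limits, among them the methods' t-test and normexp background correction, and in limma it was also lost without A+/G+ replicate 1 or 3 or A-/G+ replicate 1 or 2, at adjusted p up to 0.111.

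Promoter sequences show which letters stand before some of the 9 genes. The 250 bases before the transcription start in RefSeq on GRCm38.p6 are given for Olig2 (chr16:91225300-91225549, plus strand), for Nkx2-2 (chr2:147186403-147186652, minus strand) and for Pdgfra (chr5:75152001-75152250, plus strand), each on the strand of its gene. Capitals mark E-boxes, CANNTG, the letters that basic helix-loop-helix factors such as Olig1 and Olig2 bind.
Olig2 promoter: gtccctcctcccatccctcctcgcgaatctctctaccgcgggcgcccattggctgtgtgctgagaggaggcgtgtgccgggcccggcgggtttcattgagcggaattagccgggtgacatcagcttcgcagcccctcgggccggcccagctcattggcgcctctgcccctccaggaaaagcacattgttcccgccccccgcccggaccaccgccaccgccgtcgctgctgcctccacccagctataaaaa
Nkx2-2 promoter: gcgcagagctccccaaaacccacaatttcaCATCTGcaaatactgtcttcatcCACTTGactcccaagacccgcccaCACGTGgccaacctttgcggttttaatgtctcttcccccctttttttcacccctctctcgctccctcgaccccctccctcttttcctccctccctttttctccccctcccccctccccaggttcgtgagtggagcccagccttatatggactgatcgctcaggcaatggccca
Pdgfra promoter: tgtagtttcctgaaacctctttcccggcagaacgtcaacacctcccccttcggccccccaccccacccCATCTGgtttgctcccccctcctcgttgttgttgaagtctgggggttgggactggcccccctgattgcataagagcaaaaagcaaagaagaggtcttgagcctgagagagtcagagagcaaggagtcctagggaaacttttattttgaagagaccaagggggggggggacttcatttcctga
CANNTG, read on both strands, was found 0 times before Olig2, 3 times before Nkx2-2 and 1 time before Pdgfra, and at least once in 66.2% of the 32851 promoters of the table. The core CAAGTG of NK2-type homeodomain factors, which is itself one form of CANNTG, was found 1 time before Nkx2-2, on the minus strand as CACTTG, and in 11.6% of all promoters. The core ACAAAG of SOX factors was found in 0 of the 6 promoters of the 9 genes that the table holds, and in 16.5% of all promoters. In the promoters not printed, CANNTG was found 1 time before Nkx6-2, 1 time before Olig3 and 0 times before Cspg4. These matches describe the letters in this window only.

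Pdgfra, which encodes the receptor for PDGF-A, is the marker most used for precursors and is also transcribed in meningeal fibroblasts. Its probe is spotted 10 times on each array, which shows the noise between spots of 1 hybridisation but not that of amplification or labelling. It was at 10.44, 10.70 and 10.63 in A+/G+ and at 8.67, 8.55 and 9.46 in A-/G+, and the SD between spots of 1 array was 0.06 to 0.18. The ranges did not overlap, and the SD between the A-/G+ replicates was 0.50 (n = 3).

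The difference in Pdgfra was 1.70 (SE 0.27, 95% interval 1.00 to 2.39), with an adjusted p of 0.028 in limma. The medians were 3.89-fold apart, so Pdgfra stood just under the 4-fold limit and was not called. With the authors' normalized table the medians were 4.06-fold apart and with marked outlier spots kept also 4.06-fold, and Pdgfra was called in both. Without replicate 3 of A-/G+ they were 4.04-fold apart and it was called as well. Without another array in turn its adjusted p in limma reached 0.113. Pdgfra thus lay on either side of the limits depending on these choices.

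Cspg4 encodes the NG2 proteoglycan, found on oligodendrocyte precursors and on pericytes. It was at 9.20, 9.64 and 9.54 in A+/G+ and at 8.03, 8.07 and 8.81 in A-/G+, without overlap. The difference was 1.16 (SE 0.26, 95% interval 0.48 to 1.83) with medians 2.77-fold apart and an adjusted p of 0.0643 in limma, so it passed neither limit. Leaving out replicate 3 of A-/G+ gave an adjusted p of 0.0163 in limma, with medians 2.81-fold apart. The paper's protein results for NG2 and PDGFRα, given with Olig1, are another measure than these RNA levels of Cspg4 and Pdgfra.

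Gpr17 encodes a G protein-coupled receptor of precursors that are about to differentiate, and its probe lies on chromosome 18. It was at 10.41, 10.96 and 11.08 in A+/G+ and at 9.15, 9.66 and 11.16 in A-/G+. As with Sox10, replicate 3 of A-/G+ lay above all A+/G+ arrays and the other two below them. The difference was 0.83 (SE 0.58, 95% interval -0.66 to 2.32), with an adjusted p of 0.49 in limma, and 1.41 with an adjusted p of 0.0516 in limma without that array. Relative to Sox10 on the same array, Gpr17 differed by 0.19 between the fractions, with an exact permutation p of 0.3 (two-sided).

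In 6 of the 9 genes by their brightest probe, all but Nkx2-2, Nkx6-2 and Olig3, the SD between replicates was larger in A-/G+ than in A+/G+. Replicate 3 of A-/G+ lay above the mean of its fraction by 1.40 in Sox10, 1.18 in Gpr17, 0.57 in Pdgfra, 0.53 in Olig2, 0.51 in Cspg4 and 0.42 in Olig1. Of the 7 genes that were well above background on at least 1 A-/G+ array, 6 were highest in replicate 3 among the A-/G+ arrays and 1, Nkx2-2, was lowest there, at -0.06 from the mean. Among all 14304 genes detected in that fraction, 38.5% were highest and 37.3% lowest in replicate 3.

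**Figure D2:**
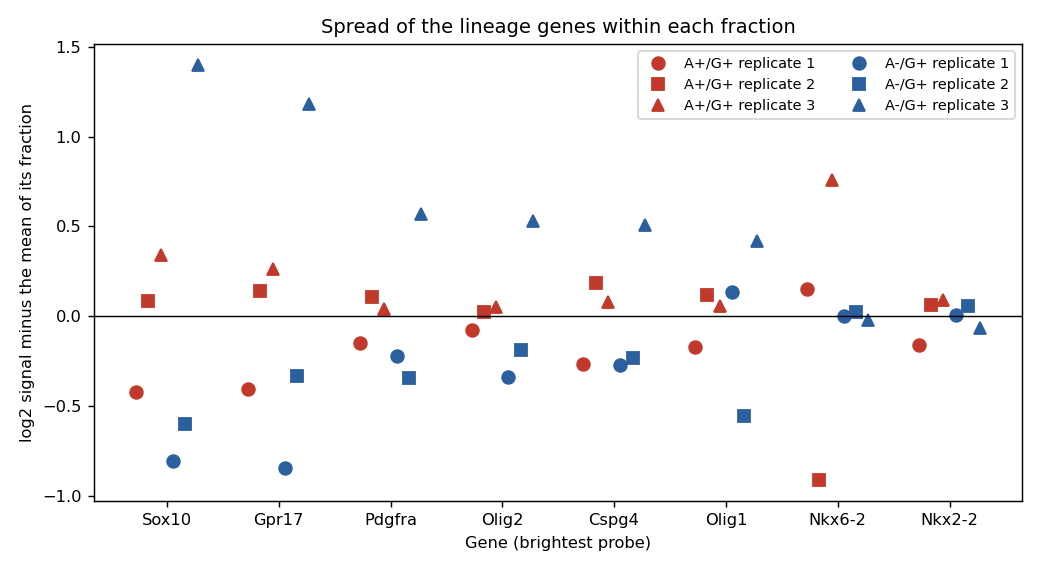
Log2 signal of each gene on each array minus the mean of its own fraction, ordered by replicate 3 of A-/G+ (blue triangles), with A+/G+ in red and Olig3 left out because it was not detected. Replicate 3 of A-/G+ lies highest among the blue points in Sox10, Gpr17, Pdgfra, Olig2, Cspg4 and Olig1. The A-/G+ arrays lie close together in Nkx2-2, and also in Nkx6-2, which was not well above background on any of them.

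Other markers moved with this array. The mean log2 level of 8 neuronal markers was 8.15, 7.99 and 9.58 on A-/G+ replicates 1, 2 and 3 against 9.73 to 10.38 in A+/G+, and 7 of the 8 were highest in replicate 3. The 6 endothelial markers stood at 6.57, 6.78 and 8.38 against 8.71 to 9.14, and 6 of 6 were highest in replicate 3. The 7 meningeal fibroblast markers went the other way, with 7 of 7 lowest in replicate 3 and means of 11.64, 11.08 and 10.09, and so did the 8 astroglial markers, with 7 of 8 lowest in it. The part of these cells in the values of the lineage genes was not tested. Without replicate 3 of A-/G+, 4 of the 9 genes were called toward A+/G+, Pdgfra being added, and the median difference of the 9 genes was 1.72. Calls rose over the whole array in that fit, in which 1448 of all 55681 probes were called toward A+/G+, against 851 with all arrays.

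The other genes of the lineage were described with lists of related genes, each gene by its brightest probe. Among 14 further genes of oligodendrocyte precursors, 1 was called toward A-/G+ and 0 toward A+/G+ in limma, and the median difference was 0.62. At an unadjusted p under 0.05 in limma there were 3 and 6, and the methods' t-test called 0 and 0. The called gene was Vcan, the matrix proteoglycan versican, at 10.48, 10.58 and 10.46 in A+/G+ and 12.77, 12.79 and 11.70 in A-/G+, a difference of -1.91 with medians 4.88-fold apart and an adjusted p of 0.0338 in limma. The call was lost without each of 5 arrays, all but A-/G+ replicate 3, at adjusted p up to 0.128. Before normalization the Vcan intensities were 2330, 2628 and 2325 in A+/G+ against 1961, 4264 and 4348 in A-/G+ and overlapped, as in Nkx2-2. Such overlap before normalization was also seen in Cacng4, Mbp, Zeb2, Zfp536, Pdgfc and Ptf1a, named below as higher in A-/G+. By the adjusted p of limma alone 2 rose, Cspg5 by 0.98 and Xylt1, and Cacng4 was lower by a difference of -0.89 beside Vcan. Xylt1 stayed at background on the A-/G+ arrays, and the sialidase Neu4 on all 6. C1ql1, a secreted protein of precursors chosen here after its values were seen, was at 6.42, 6.78 and 6.87 in A+/G+ and at 4.99, 5.64 and 7.46 in A-/G+, with replicate 3 of A-/G+ above all A+/G+ arrays as in Sox10 and Gpr17. The list as a whole did not share this: of its 12 genes detected in A-/G+, 5 were highest and 5 lowest in replicate 3 among the A-/G+ arrays.

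Among 19 genes of differentiating and myelinating oligodendrocytes, 1 was called toward A+/G+ and 0 toward A-/G+ in limma, and the median difference was 0.13. At an unadjusted p under 0.05 in limma there were 4 and 1, and the methods' t-test called 1 and 0. The called gene was Cldn11, a tight junction protein of myelin that cells of the meninges also make, with a difference of 2.31, medians 5.55-fold apart and an adjusted p of 0.0128 in limma. It was at 11.13, 11.16 and 10.81 in A+/G+ and at 9.20, 8.66 and 8.31 in A-/G+, lowest in replicate 3 as the meningeal markers were. The Cldn11 call was lost whichever A+/G+ array was left out, at adjusted p in limma up to 0.0647, and kept without each A-/G+ array. Mbp, myelin basic protein, was higher in A-/G+ by the adjusted p of limma alone, with a difference of -0.79 and an adjusted p of 0.0487. Myrf, Opalin and Enpp6, which mark cells that have begun to make myelin, stayed at background on all 6 arrays.

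Of 17 other regulators of the lineage, 1 was called toward A+/G+ and 0 toward A-/G+ in limma, where 1 and 9 had an unadjusted p under 0.05 and the methods' t-test called 0 and 0. The means of 14 of the 17 were lower in A+/G+, as were those of 13495 of all 24082 genes. The median difference was -0.42, against -0.03 for all genes. The called gene was Nkx6-1, a homeodomain factor related to Nkx6-2, at 6.64, 6.05 and 6.94 in A+/G+ and at 1.88, 1.91 and 3.89 in A-/G+, where it stayed at background. The A+/G+ mean was at least 3.19-fold higher, with an adjusted p of 0.0289 in limma, and only leaving out A-/G+ replicate 3 kept the call among the 6 arrays left out in turn (adjusted p up to 0.109). By the adjusted p of limma alone, Zeb2 was higher in A-/G+ with a difference of -1.23 and Zfp536 with a difference of -0.84. Sox9, which is made in glial progenitors of all kinds, differed by -0.36 with an adjusted p of 0.554 in limma.

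**Figure D3:**
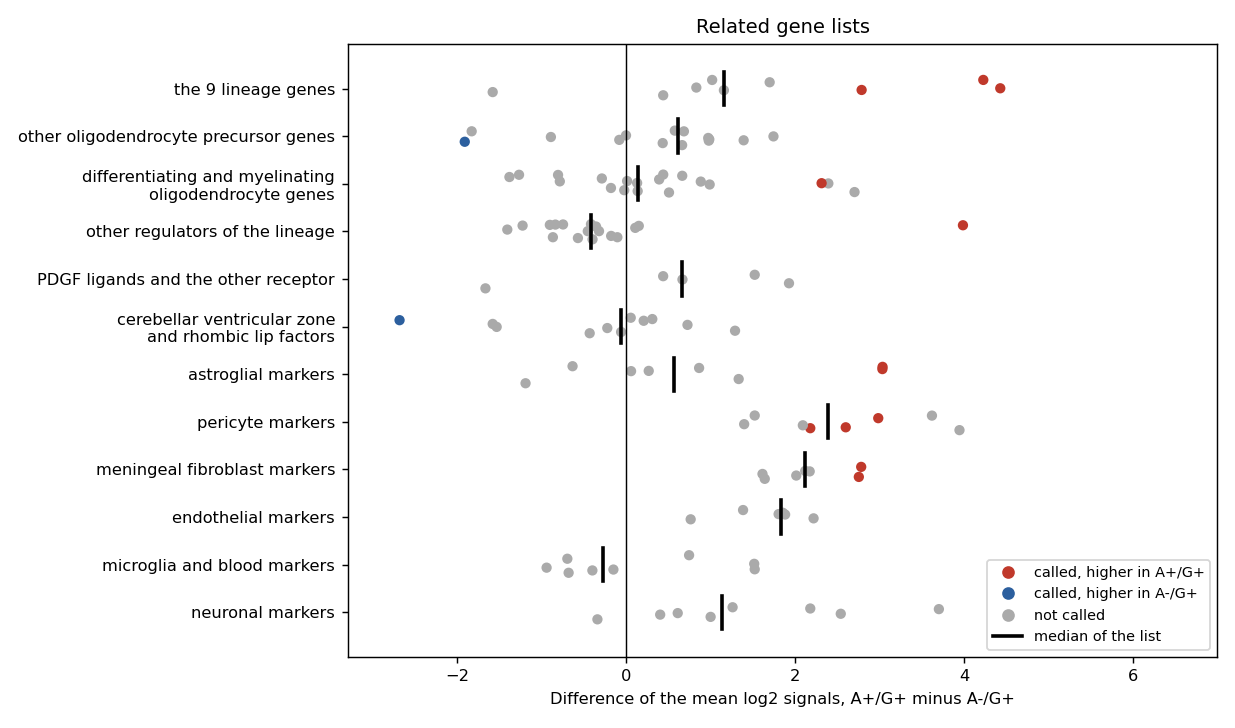
Difference of the mean log2 signals, A+/G+ minus A-/G+, for the brightest probe of each gene in the 9 lineage genes and 11 related lists, in red or blue where called, with a black bar at the median of each list. The medians run from -0.42 for the other regulators of the lineage to 2.39 for the pericyte markers, and the 9 lineage genes have a median of 1.16. Vertical scatter within a list only separates the points.

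In the PDGF family, 0 of 5 genes were called in either direction in limma, 1 in each direction had an unadjusted p under 0.05, and the methods' t-test called 0. Pdgfa, the ligand of the receptor encoded by Pdgfra, was at 10.56, 10.47 and 10.57 in A+/G+ and 9.79, 9.41 and 10.42 in A-/G+, with an adjusted p of 0.238 in limma. Pdgfrb, the other receptor and a pericyte marker, was higher in A+/G+ by 1.52 with medians 2.77-fold apart and an adjusted p of 0.00483 in limma. Pdgfc was higher in A-/G+, with a difference of -1.67 and an adjusted p of 0.00721 in limma. Relative to Pdgfrb on the same array, Pdgfra differed by 0.18 between the fractions, with an exact permutation p of 0.6 (two-sided).

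Of 11 progenitor factors of the cerebellar ventricular zone and rhombic lip, 1 was called toward A-/G+ and 0 toward A+/G+ in limma, with 3 and 0 at an unadjusted p under 0.05 and 1 and 0 by the methods' t-test, and the median difference was -0.06. The called gene was Ptf1a, the factor of GABAergic interneuron progenitors, at 7.14, 7.71 and 7.79 in A+/G+ and 10.32, 10.64 and 9.73 in A-/G+, with medians 6.11-fold apart and an adjusted p of 0.0134 in limma. Without A+/G+ replicate 2 or 3 its adjusted p in limma reached 0.0605. It had the same direction as Nkx2-2.

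Cells that carry some of the 9 genes without belonging to the lineage were also followed. Of 8 pericyte markers, 3 were called toward A+/G+ (Rgs5, Anpep and Vtn) and 8 of 8 had higher means there, the median difference being 2.39, with mean log2 levels of 8.45 to 8.73 in A+/G+ against 5.52 to 6.90 in A-/G+. Of 7 meningeal fibroblast markers, 2 were called toward A+/G+ (Slc6a13 and Slc22a6) and 7 of 7 had higher means there, the median difference being 2.12, with levels of 12.97 to 13.24 against 10.09 to 11.64. Anpep and Vtn kept their calls whichever array was left out, whereas Rgs5, Slc6a13 and Slc22a6 lost theirs without any A+/G+ array and without A-/G+ replicate 2, and Rgs5 also without A-/G+ replicate 1, at adjusted p in limma up to 0.155, 0.0787 and 0.0821. The methods' t-test called 2 pericyte markers, Anpep and Vtn, and 1 meningeal marker, Slc6a13. Summed over the list, the meningeal intensities before normalization were 128100 to 163800 in A+/G+ and 12090 to 18940 in A-/G+, and each meningeal marker was well above background on each array. Between the fractions, Pdgfra moved in the same direction as the meningeal and Cspg4 as the pericyte markers. Within A-/G+, Pdgfra was highest in replicate 3, where 7 of 7 meningeal markers were lowest. Cspg4 was highest there as well, as were 5 of the 7 pericyte markers detected in A-/G+. The part of those cells in these values was not tested. In bulk samples, more cells of a type and more RNA per cell cannot be told apart.

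The remaining lists set the frame for these fractions. Each of the 8 astroglial markers was detected on each array. Gfap and Gja1 were called toward A+/G+, with differences of 3.03 each, and 0 toward A-/G+ in limma, where 2 had an unadjusted p under 0.05 and the methods' t-test called 0. The methods' t-test called Gja1 but not Gfap toward A+/G+. In limma, only the call of Gfap was lost when arrays were left out, without any A+/G+ array or A-/G+ replicate 1 (adjusted p in limma up to 0.0817). Slc1a3, the GLAST antigen, was at 13.26, 13.31 and 13.61 in A+/G+ and 14.85, 14.92 and 14.00 in A-/G+, with an adjusted p of 0.0733 in limma. Of 6 endothelial, 8 microglia and blood and 8 neuronal markers, 0 were called in either direction in limma or by the methods' t-test, and 2, 2 and 3 had an unadjusted p under 0.05 in limma, all toward A+/G+. Their median differences were 1.83, -0.28 and 1.13, and without replicate 3 of A-/G+ 3 endothelial, 1 blood and 3 neuronal markers were called toward A+/G+. Over the whole array, that fit called 1448 of 55681 probes toward A+/G+, against 851 with all arrays.

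The genes whose 6 values ran most like those of a lineage gene were sought among the 11332 genes well above background on all 6 arrays, after each was centred on its own mean. Closest to Nkx2-2 were Nes, the intermediate filament of neural progenitors, with a root mean square distance of 0.06 on the log2 scale and Fam222b with 0.09. Closest to Olig1 were Slc14a2 with 0.23, the GABA transporter Slc6a11 with 0.28 and the potassium channel Kcnj16 with 0.30. Closest to Pdgfra were Parp10, Igfbp2 and Slc2a1, to Cspg4 Txndc5, Fhad1 and Tenc1, and to Gpr17 Lims2, AW554918 and C130074G19Rik. The distances rest on 6 arrays in 2 groups and are given as a description.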

How the data were processed

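Log2 signals of 6 one-color arrays, 3 per fraction, were compared. The files the authors deposited were 1 scanner file per array, with a background-corrected intensity per spot from Agilent Feature Extraction 10.7.3.1, and their own quantile-normalized log2 table. RNA was amplified from polyA tails and labelled with Cy3, which favors the 3' ends of transcripts.

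Here intensities were taken to log2 without control and outlier spots, quantile normalized and averaged over the spots of a probe. Quantile normalization gives all arrays the same distribution, so differences are relative to all probes. All 55681 probes were fitted with limma 3.58.1 in R 4.3.3 and p-values adjusted by Benjamini-Hochberg, with the study's limits of 0.05 and 4-fold medians. A gene is given by its brightest probe. Where a group was not above background on any array, a bound replaced the fold. The p-values measure the spread between 3 arrays, whose number limits the precision. Simulated data with known changes were used to test the script.

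The 9 genes, their list of 11 related gene sets (111 entries, all found on the array, Zfp24 as Zfp191) and the tests were chosen with earlier results of these data known. Named were the 9 genes, called genes of each list, fixed related genes and up to 3 genes most like each, and some related genes are not reported here. Others are marked. The labels give postnatal days 1 to 3, and strain CD1, whereas the study's methods give an earlier neonatal age and, for its wild-type mice, a C57BL/6 background. Promoters came from RefSeq on GRCm38.p6, for 6 of the 9 genes: Olig1, Sox10 and Gpr17 were not matched. Alternatives were another scaling, normexp with an offset of 50, dim probes left out, the authors' table, trend and robust variance, the methods' t-test, outlier spots kept, the mean of all probes, other size limits, a replicate block and each array left out.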

Additional observations from a re-analysis of the deposited data

How the results depend on the processing

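With 3 arrays per fraction, and each fraction on its own slide, no setting separates slide from fraction, and a weak probe such as that of Nkx6-2 or Olig3 is limited by its signal over background on the dimmer A-/G+ arrays. Olig1 and Olig2 were called under 14 of 15 alternatives with the same limits, the exception being the replicate block, and Nkx6-2 under 7 of 15. Of the 9 genes only Olig3, which was not detected, changed the sign of its difference under any setting, at 1 setting.

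The number of the 9 genes called higher in A+/G+ was 3, and leaving out 1 array in turn gave 2 to 4. Called higher in A-/G+ was 0, and 1 (Nkx2-2) with a 2-fold limit and with no limit on size. Their median difference of 1.16 was 0.77 with normexp, and 1.02 to 1.72 without 1 array in turn, highest without A-/G+ replicate 3. Nkx6-2 fell short with a shift to the 75th percentile (adjusted p 0.0705), normexp (0.0751), the methods' t-test (0.0674) and without A+/G+ replicate 1 (0.111), A+/G+ replicate 3 (0.0715), A-/G+ replicate 1 (0.0731) or A-/G+ replicate 2 (0.0723), all but the t-test in limma. The cause was not tested.

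The probes called higher in A+/G+ numbered 851 of all 55681, and 234 with normexp, 487 with the methods' t-test, 1797 with a 2-fold limit, 2589 with no limit on size and 328 to 1448 without 1 array in turn, the last without A-/G+ replicate 3. Those called higher in A-/G+ numbered 222, and 2055 with a shift to the 75th percentile, which moves the median of all probes from -0.04 to -1.02, 48 with normexp, 121 with the t-test, 1340 with a 2-fold limit, 2583 with no limit and 75 to 481 without 1 array in turn. Related genes called higher in A+/G+ numbered 9, and 14 with the 75th percentile shift, 5 with the t-test, 15 with a 2-fold limit, 16 with no limit and 3 to 21 without 1 array. Those higher in A-/G+ numbered 2, and 1 with the t-test, 6 with a 2-fold limit, 10 with no limit and 0 to 3 without 1 array.

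With the replicate number as a block, 0 probes were called in either direction, 0 of the 9 genes and 0 related genes, and adjusted p was 0.0646 for Olig1, 0.063 for Olig2, 0.0643 for Nkx2-2 and 0.105 for Nkx6-2 in limma. Deviations of same-numbered arrays from their group means correlated at 0.0877, 0.0557 and 0.00579. The labels do not say whether same-numbered arrays came from the same preparation, and correlations this weak cannot decide it. A+/G+ replicates 1 and 2 correlated best with their own number and replicate 3 did not.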
